A study of Mus musculus with 2 samples.

Results

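Peaks at gene 3' ends were the accessible regions of mouse cortex centred at the far end of a protein-coding gene. They were taken from the larger of the peak lists that the authors deposited for each library, on chromosomes 1 to 19. A peak was a member when its centre lay within 500 bp of the 3' end of a GENCODE M21 protein-coding gene, over 1000 bp from the start of any annotated transcript, and outside coding sequence. Replicate 1 held 1183 such peaks of 146581 (0.807%) and replicate 2 held 1263 of 151350 (0.834%), a mean of 1223 ± 56.6 (SD, n = 2 libraries). Merged by overlap, they made 1539 sites. Peaks met the rule in both libraries at 883 sites. At 49 more sites the other library had a peak that missed the rule, and at 607 it had none. The rule used position only, so no signal chose the members.

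Accessibility was measured by DNase-seq: DNase I, a nuclease, cuts DNA that is not wrapped in nucleosomes, and the cut ends are sequenced. The tissue was left cerebral cortex of male B6CASTF1/J mice, first-generation hybrids of C57BL/6J and CAST/EiJ, at 14 days of age. The single group held 2 libraries labelled as biological replicates. By their labels, 3 males gave replicate 1 and 1 male gave replicate 2. Both labels carried the same donor identifier, so SDs over libraries may not be a spread between animals. No treatment and no other genotype was present, and 2 libraries against each other cannot go below an exact p of 0.5, so no p-value is given. In bulk tissue, a lower share of cells with an open site and a less open site in every cell cannot be told apart.

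The 3' end of a protein-coding gene is where the nascent transcript is cleaved and polyadenylated. RNA polymerase II runs on beyond that point and is released further downstream. The DNA around a polyadenylation site is rich in A and T bases and is known to be poor in nucleosomes, while regulatory elements and sites of the insulator protein CTCF can lie in the flanks of genes. A 3' end can also face the end or the start of a neighbouring gene, so an element there may serve either gene.

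As a check of the tissue label, promoter peaks were counted over short gene lists. All of the 16 pan-neuronal genes on these chromosomes had a promoter peak in both libraries, as did 18 of 18 excitatory neuron genes, 16 of 18 inhibitory neuron genes, 14 of 16 astrocyte genes and 12 of 12 oligodendrocyte precursor genes, with 67.6% of all protein-coding genes. Of 13 myelin, 14 microglia and 14 endothelial genes 8, 10 and 8 had one. Of 16 hepatocyte genes 2 did, and of 16 germline genes 5 did. Peak signal is the authors' value for each peak, its highest cleavage density, which they scaled within each library. Sequencing depth is not given in the sources used here. Below 0.5, the range checked, signals moved in steps of 0.00474 for replicate 1 and 0.00614 for replicate 2 (within 0.05 of a step), and the median member stood at 137 and 126 steps.

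These 4 sequences show what peaks at 3' ends look like, all from sites downstream of the annotated gene in intergenic DNA. They are written 5' to 3' on the plus strand of mm10, and capitals mark bases that lay in a footprint in both libraries. A footprint is a short stretch that the authors called as protected from cleavage inside accessible DNA. The first 2 are the strongest members by mean rank, Bcan carries the CTCF word inside a footprint, and Egr4 is the strongest member at an activity-regulated gene. Their positions are Fam120a at chr13:48878661-48878860, Sec14l2 at chr11:4096601-4096860, Bcan at chr3:87987041-87987200 and Egr4 at chr6:85510581-85510760. All 4 genes are on the minus strand.
Fam120a: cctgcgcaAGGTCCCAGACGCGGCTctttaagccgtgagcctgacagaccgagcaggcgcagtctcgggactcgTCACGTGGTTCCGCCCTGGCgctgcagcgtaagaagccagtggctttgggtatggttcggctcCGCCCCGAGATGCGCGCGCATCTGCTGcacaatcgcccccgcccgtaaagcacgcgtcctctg
Sec14l2: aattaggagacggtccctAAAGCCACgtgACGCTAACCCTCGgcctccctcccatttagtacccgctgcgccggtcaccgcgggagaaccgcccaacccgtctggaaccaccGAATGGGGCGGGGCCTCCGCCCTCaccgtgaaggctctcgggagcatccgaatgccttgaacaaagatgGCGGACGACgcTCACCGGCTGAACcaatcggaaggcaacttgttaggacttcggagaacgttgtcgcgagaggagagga
Bcan: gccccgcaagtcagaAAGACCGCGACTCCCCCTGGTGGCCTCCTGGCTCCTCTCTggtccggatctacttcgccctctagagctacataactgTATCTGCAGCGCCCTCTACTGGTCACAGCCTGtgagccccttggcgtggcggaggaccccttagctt
Egr4: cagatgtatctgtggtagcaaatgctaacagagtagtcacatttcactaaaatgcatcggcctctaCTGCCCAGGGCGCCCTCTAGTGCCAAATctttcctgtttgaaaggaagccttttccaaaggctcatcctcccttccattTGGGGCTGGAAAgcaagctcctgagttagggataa

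The next 5 lines set matches to the CTCF consensus side by side to show how closely they resemble each other. Each is 30 bases long, read on the strand of the match, with the matched word in capitals. All 5 words lay wholly inside footprints of both libraries. They lie at chr3:87987135-87987164 (Bcan, minus), chr8:84815722-84815751 (Dand5, minus), chr6:87002937-87002966 (Aak1, minus), chr8:13551140-13551169 (1700029H14Rik, plus) and chr8:84010021-84010050 (2210011C24Rik, plus).
Bcan: aggctgtgaCCAGTAGAGGGCgctgcagat
Dand5: cgcttttagCCACTAGGTGGCaccgcgtcc
Aak1: caaatactgCCAGCAGAGGGCgctcatctt
1700029H14Rik: gaatctgaaCCACCAGAGGGCaccatcaga
2210011C24Rik: gcgttctcaCCACCAGGGGGCagtagggcc

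The 3' ends of genes held more accessible sites per base than distal DNA as a whole, with a narrow gap at the end itself. Members were counted per megabase of sequence that could hold one, that is, over 1000 bp from a start and outside coding sequence. That sequence came to 16.7 Mb within 500 bp of a 3' end, with 70.7 peaks per Mb in replicate 1 and 75.5 in replicate 2. The other 2205 Mb held 47.4 and 49.6 peaks per Mb, so the ratio was 1.49 and 1.52, a mean of 1.51 ± 0.02 (SD, n = 2). Against sequence 500 to 5000 bp from a 3' end the ratio was 1.05, so sequence a few kilobases away was nearly as dense. Within bins of equal distance to the nearest start, weighted by the members, it was 1.31. Both of these comparisons were added after the data were seen.

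Along the gene, density changed over short distances. From 500 to 100 bp upstream of the 3' end, inside the gene, there were 77.5 and 81.9 peaks per Mb in replicates 1 and 2. In the last 100 bp upstream there were 34.9 and 41.9, and in the first 100 bp downstream 47.4 and 51.3. From 100 to 300 bp downstream density reached 89.5 and 94.6 peaks per Mb, the highest of the 9 zones compared in either library. These zones differed in width, and wide ones average out local highs. In 100 bp bins, density was 94.8 and 101 from 200 to 300 bp downstream, and nearly as high, 94.2 and 96.9, from 2600 to 2700 bp downstream. Base composition matched the changes near the end only in part. The last 100 bp upstream had 36.3% G and C bases, against 43.5% in the 400 bp before it and 44.8% from 100 to 300 bp downstream. The first 100 bp downstream had 42.3%, close to the 42.7% from 200 to 100 bp upstream, where density was 71.7 and 73.6 peaks per Mb. Whether composition has a part in the gap was not tested. Density from 500 to 2000 bp downstream was 76.6 and 76.3 peaks per Mb, and from 5000 to 2000 bp upstream 59.9 and 61.7.

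**Figure D1:**
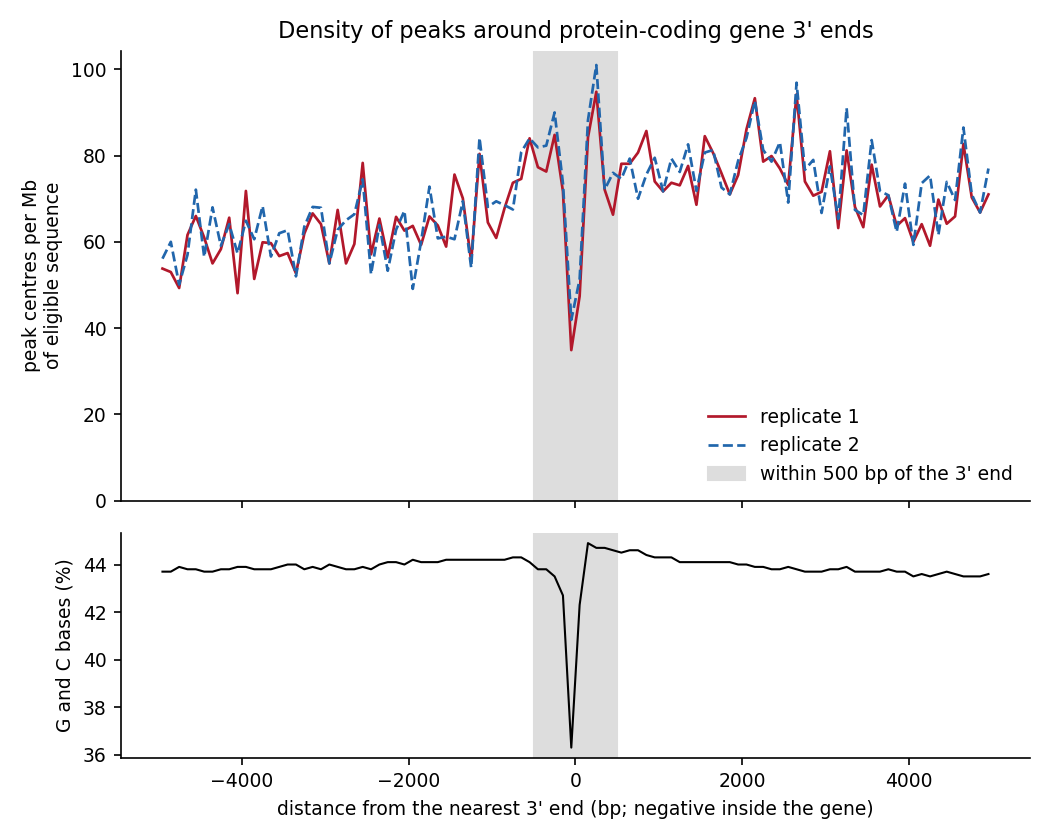
Upper panel: peak centres per Mb of eligible sequence in 100 bp bins of distance from the nearest protein-coding 3' end (x axis, bp, negative inside the gene), with a line for each library. Lower panel: percent of G and C bases in the same bins. The grey band marks the 500 bp on each side that define the members; in the last 100 bp of the gene density was 34.9 and 41.9 peaks per Mb at 36.3% G and C.

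By annotation, most members lay either in an untranslated region of the gene or in intergenic DNA just past it. In replicate 1, 486 members (41.1%) lay inside the gene in annotated UTR and 519 (43.9%) downstream in intergenic DNA, and in replicate 2 there were 512 (40.5%) and 552 (43.7%). A further 126 and 132 lay downstream inside another annotated gene, and 52 and 67 inside the gene in other non-coding sequence. Median signals of UTR members were 0.59 in replicate 1 and 0.746 in replicate 2, below the intergenic downstream members at 0.687 and 0.786. Moving across the 500 bp limit changed little: members 400 to 500 bp from the end had median signals of 0.654 (n = 233) and 0.774 (n = 255), and peaks just outside, at 500 to 600 bp, had 0.682 (n = 259) and 0.823 (n = 252). At the limit of 1000 bp from a start, members at 1000 to 1100 bp had medians of 0.668 (n = 17) and 0.651 (n = 23), and peaks at 900 to 1000 bp had 0.687 (n = 19) and 0.823 (n = 20).

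Members had a higher median signal than other distal peaks as a whole and a lower one than promoter peaks, but peaks a little further downstream were as strong. Their median signal was 0.649 in replicate 1 and 0.774 in replicate 2. Other distal non-coding peaks had medians of 0.497 (n = 104406) and 0.608 (n = 109399), peaks centred in coding exons 0.502 (n = 2685) and 0.596 (n = 2715), and promoter peaks, within 1000 bp of a start, 0.852 (n = 38307) and 0.989 (n = 37973). Within a library the 3' end median was 1.3 and 1.27 times that of other distal peaks, a mean ratio of 1.29 ± 0.0227 (SD, n = 2). It was 1.3 ± 0.00461 times that of coding exon peaks and 0.772 ± 0.0152 times that of promoter peaks. The ratio to other distal peaks was 1.18 within bins of equal distance to a start, so part of the difference went with distance to a start. From 1000 to 2000 bp from a start it was 1.07 and 1.06. Peaks from 500 to 2000 bp downstream of a 3' end had medians of 0.649 in replicate 1 and 0.786 in replicate 2, and those from 2000 to 5000 bp downstream 0.668 and 0.792. From 2000 to 500 bp upstream the medians were 0.592 and 0.749, and from 5000 to 2000 bp upstream 0.616 and 0.743. All of these lay above the medians of other distal peaks. The higher signal was therefore shared by the neighbourhood on both sides, more fully downstream. Members and other distal peaks had the same median width, 180 bp, and members had a median of 52.7% and 53.3% G and C bases, against 50% and 50%.

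**Figure D2:**
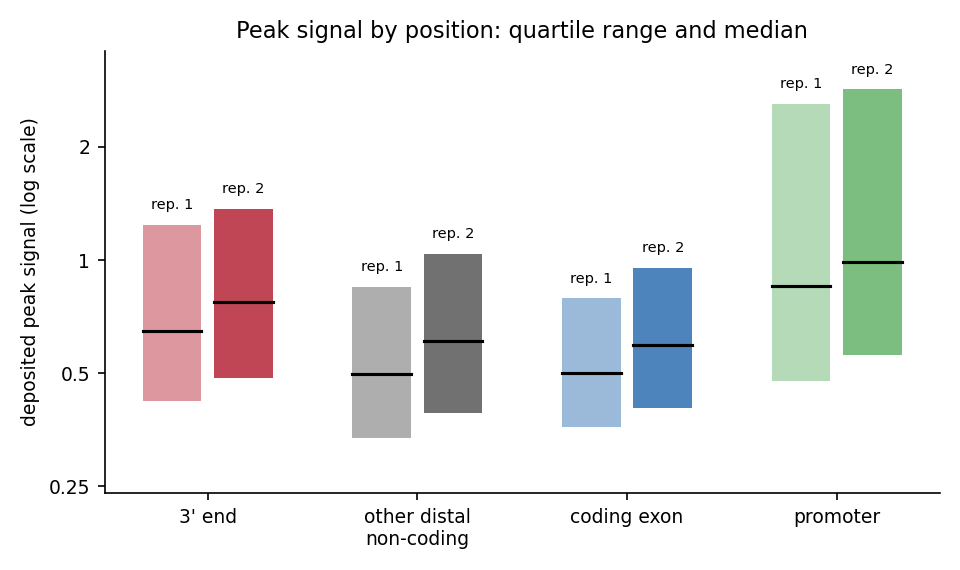
Deposited peak signal (y axis, log scale, the authors' depth-scaled cleavage density) for 3' end, other distal non-coding, coding exon and promoter peaks. Boxes span the lower to the upper quartile of the peaks in each library and black lines mark medians. The 3' end medians, 0.649 in replicate 1 and 0.774 in replicate 2, lay above those of other distal and coding exon peaks and below those of promoter peaks.

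About 3 in 4 members were found again in the other library, but weak ones were found less often than other weak distal peaks. Sharing needed 1 bp of overlap with any peak of the other library. By this measure 76.9% of the members of replicate 1 were shared (74.4 to 79.2, Wilson 95% interval), and 72.7% of those of replicate 2 (70.2 to 75.1). The mean was 74.8% ± 3, against 75.7% ± 2.5 for other distal peaks, 70% ± 0.733 for coding exon peaks and 83.7% ± 0.75 for promoter peaks. Peaks were then ranked into quintiles of the signal of all peaks of their library. In the weakest quintile 28.6% (21.9 to 36.3) and 27.2% (21.2 to 34.1) of members were shared, against 47.1% (46.5 to 47.8) and 41.2% (40.6 to 41.8) of other distal peaks. In the middle quintile the shares were 78.4% and 68.5% of members, against 86.3% and 82.1%, and in the top quintile 99.3% and 99.3%, against 99.9% and 99.9%. Lower sharing was not particular to 3' ends. Coding exon peaks had 38.7% and 34% in the weakest quintile, above members but below other distal peaks. In the middle quintile they had 75.5% and 77.1%. Promoter peaks had 39.2% and 45.8% in the weakest quintile, below other distal peaks in replicate 1 only. At the same time more members were strong: 23.3% and 21.7% of them were in the top quintile, against 13.7% and 14.1% of other distal peaks. Of the 273 and 345 members with no peak in the other library, 14.3% and 11.6% overlapped an interval that the authors listed there at a false discovery rate up to 0.05, against 12.2% and 13.4% for other distal peaks. Intervals cover counting error only.

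Footprint calls went with signal. At least 1 footprint overlapped 88.3% of members in replicate 1 (86.4 to 90) and 86.1% in replicate 2 (84.1 to 87.9), a mean of 87.2% ± 1.55, against 84.1% ± 0.541 of other distal peaks. Members held 2.35 and 2.21 footprints per peak, against 2.05 and 2. At like signal the order varied. In the weakest quintile 47.6% and 45% of members held a footprint, against 56.6% and 52.3% of other distal peaks, and in the next 85.3% and 76.6%, against 84.9% and 84.1%. In the middle quintile the shares were 91.5% and 92.7%, against 92.9% and 93.8%, and in the quintile above it 98.2% and 98.4%, against 98% and 98.2%. In the top quintile members held 3.84 and 3.57 footprints each, against 3.65 and 3.52.

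**Figure D3:**
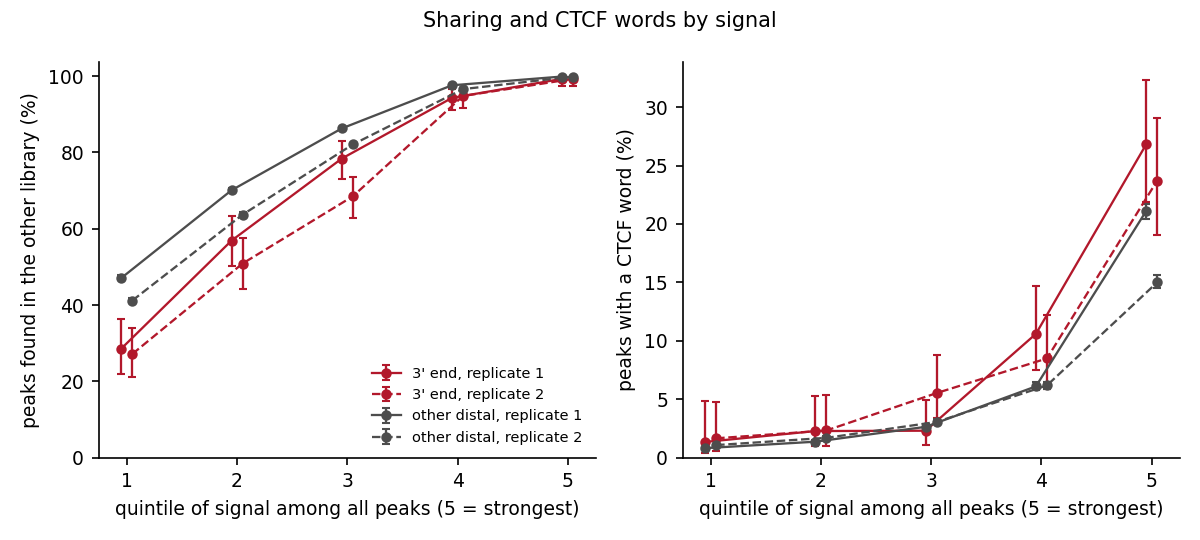
Peaks in quintiles of the signal of all peaks of their library (x axis, 5 is the strongest), for 3' end and other distal non-coding peaks, with the percent found in the other library on the left y axis and the percent with the CTCF word on the right; points are libraries and bars are Wilson 95% intervals. In the weakest quintile 28.6% and 27.2% of 3' end peaks were shared, against 47.1% and 41.2% of other distal peaks. In the top quintile 26.8% and 23.7% of 3' end peaks held the CTCF word, against 21.1% and 15%.

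Of the words searched, that of CTCF differed by the most percentage points between members and other distal peaks. Words were matched on either strand in the central 150 bp of each peak. CTCF is a zinc-finger protein that binds a long motif and marks the borders of chromatin loops. A match to its 12-base consensus was found in 117 members of replicate 1 (9.89%) and 115 of replicate 2 (9.11%), a mean of 9.5% ± 0.555, against 4.88% ± 0.365 of other distal peaks, 3.28% ± 0.209 of coding exon peaks and 1.8% ± 0.0685 of promoter peaks. Weighted to the members' distances from a start, other distal peaks had 5.89% and 5.34%. The share also rose with signal, and more members than other distal peaks were strong. In the top quintile of signal 26.8% and 23.7% of members held the word, against 21.1% and 15% of other distal peaks. In the middle quintile the shares were 2.32% and 5.54%, against 2.65% and 3.07%. Members had the higher share in the remaining quintiles of both libraries. How much of the whole difference went with signal was not computed. The higher share was not confined to the 500 bp window. From 2000 to 5000 bp downstream 9.27% and 8.46% of peaks held the word, and from 5000 to 2000 bp upstream 9.28% and 8.68%. Among members the share was 7% and 6.84% in UTRs and 11.4% and 10.5% in downstream intergenic DNA, where the intervals (8.92 to 14.4 and 8.22 to 13.3) overlapped those of UTR members (5.05 to 9.62 and 4.96 to 9.36).

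CTCF words lay in footprints nearly throughout, as in the 5 matches printed above. Of 119 words in members of replicate 1, 110 (92.4%) lay wholly inside a footprint, and of 117 in replicate 2, 104 (88.9%) did. Footprints covered 37.3% and 33.2% of the central 150 bp of these members, and 17.6% and 17.2% in members without the word. These groups were not compared at like signal, and the share of other words inside footprints was not computed. The word lay on the strand of the gene in 68 of 119 cases (57.1%) and 65 of 117 (55.6%). No interval was computed for these shares and the libraries have most of these sites in common, so a preference for a strand cannot be read from them. Members with the word were strong: at the 113 sites that held it in both libraries the median signal was 1.94 in replicate 1 and 1.63 in replicate 2, against 0.743 and 0.958 at the 769 sites with it in neither. It was present in both at 22 of the 50 sites of highest mean rank and at 37 of the top 100.

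Words of other factors differed by fewer percentage points. The AP-1 word TGANTCA, bound by Fos and Jun dimers, was held by 6.07% ± 1.05 of members, against 9.29% ± 0.55 of other distal peaks. The E-box CAGCTG, bound by basic helix-loop-helix proteins, was held by 15.7% ± 0.546, against 16.4% ± 0.0895, and TTGGCA, part of the site of nuclear factor I, by 14% ± 0.103, against 16.8% ± 1.04. The GC box GGGCGG, bound by Sp factors and common at promoters, was held by 8.39% ± 0.214 of members, 5.65% ± 0.158 of other distal peaks and 32.4% ± 0.176 of promoter peaks. The MEF2 word was held by 1.8% ± 0.148 against 2.17% ± 0.0234, and the ETS word CCGGAAG by 1.26% ± 0.115 against 0.929% ± 0.0135. For both words the members' Wilson intervals held the value of other distal peaks in each library. The CRE TGACGTCA had 0.164% ± 0.00757 against 0.335% ± 0.00149, but it was held by only 2 members in each library, too few to compare. The EGR word GCGTGGGCG and the NRF1 word were held by 0.0792% ± 0.112 and 0.0396% ± 0.056 of members, also too few to compare. A match describes the sequence and does not show that a factor was bound.

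The polyadenylation signal AATAAA, which marks where a transcript is cut, was held by 11.1% ± 0.0079 of members, against 8.73% ± 0.411 of other distal peaks. The members' Wilson intervals were 9.41 to 13 and 9.47 to 12.9, far wider than that SD. Since the rule places members at gene ends, where this word is common, the comparison cannot separate accessibility from position. It was held by 14.8% and 14.3% of UTR members and by 9.83% and 9.96% of downstream intergenic ones. On the gene strand it stood in the last 50 bp of 60.2% and 60.6% of the host genes, with 59.1% and 59.1% for other genes with eligible sequence, and the intervals of hosts (57.3 to 62.9 and 57.8 to 63.3) held the value of the others.

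**Figure D4:**
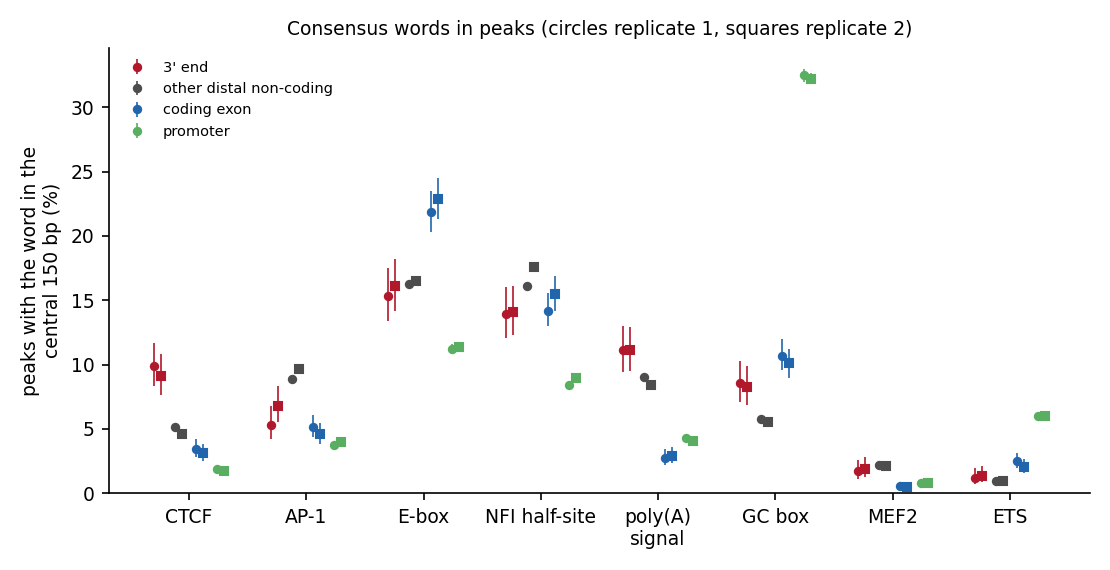
Percent of peaks with each word in the central 150 bp (y axis) for 3' end, other distal non-coding, coding exon and promoter peaks; circles are replicate 1, squares are replicate 2 and bars are Wilson 95% intervals. As means of both libraries, the CTCF word was held by 9.5% of 3' end peaks, against 4.88% of other distal peaks, and the AP-1 word by 6.07% against 9.29%.

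Between libraries the members kept their order of signal. Across the 883 sites met in both, which are not replicates and share the libraries' depth, signals had a Spearman's rho of 0.907, and Pearson's r on the log10 scale was 0.92. The log2 ratio of replicate 1 over replicate 2 had a median of -0.20 and an SD of 0.44, where counting alone would give an SD of 0.17 if a step is 1 read. Signal was higher in replicate 1 at 309 sites and higher in replicate 2 at 574, and it differed by over 2-fold at 23. Since the authors scaled each library on its own, the median shift has no absolute meaning, and only differences between members can be read.

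The ratio went with the CTCF word. At the 113 sites with the word in both libraries the log2 ratio of replicate 1 over replicate 2 had a median of 0.20 and an SD of 0.29, and 85 of them were higher in replicate 1. At the 769 sites with the word in neither the median was -0.27 and the SD 0.44, and 224 were higher in replicate 1. Other distal peaks split in the same direction, with medians of 0.26 for 4947 peaks with the word and -0.31 for 75918 without it, so the split was not particular to 3' ends. The word split was added after the data were seen, and neither the libraries' preparation nor the make-up of their cells was tested as a source of it.

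**Figure D5:**
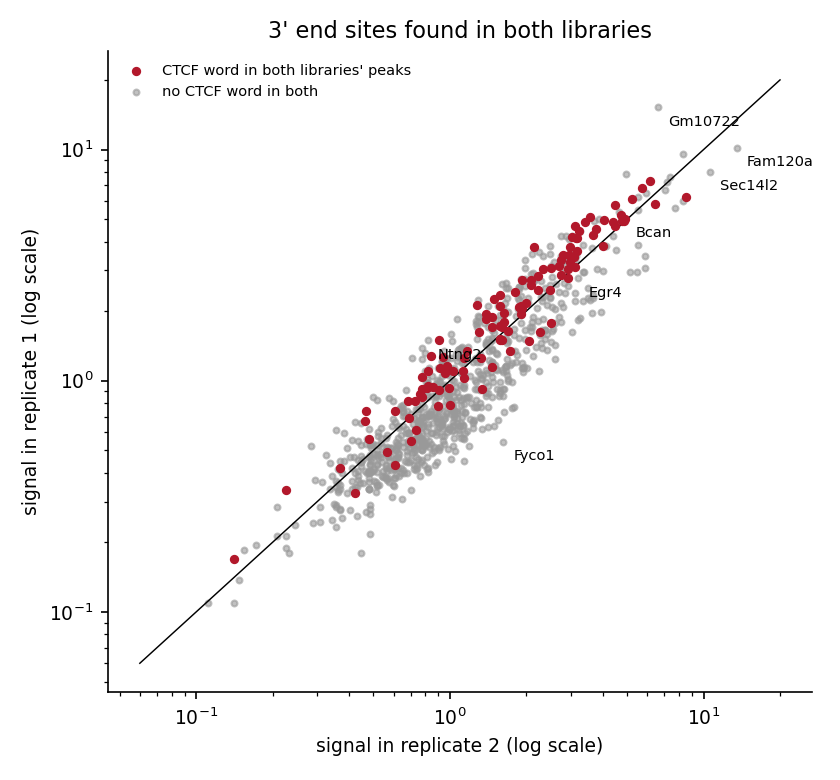
Signal of the 883 sites that met the rule in both libraries, replicate 1 on the y axis and replicate 2 on the x axis (log scales), with sites that held the CTCF word in both libraries in red, other sites in grey and a line where both are equal. Points lie along the diagonal (Spearman's rho 0.907), and 85 of the 113 sites with the word in both were higher in replicate 1.

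The strongest members were at genes of varied function. The site past the end of Fam120a, which encodes an RNA-binding protein, had signals of 10.2 in replicate 1 and 13.5 in replicate 2, and lay 458 bp downstream. The site 308 bp past Sec14l2, encoding a tocopherol-binding protein, had 8.03 and 10.6. Both were unlike most members in base composition: in replicate 1 they had 66% G and C bases and a ratio of observed to expected CpG of 1.04 and 1.05, against a member median of 0.268. Each sequence printed above holds the GC box 3 times, and 1 of 3 at Fam120a and 2 of 3 at Sec14l2 lay inside footprints of both libraries. The Fam120a site lay 7642 bp from the nearest GENCODE start and 7806 bp from the nearest RefSeq start (replicate 2), and the Sec14l2 site 1286 and 1300 bp.

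CpG-rich members were few. Those with over 55% G and C and a CpG ratio over 0.6 numbered 69 (5.83%) in replicate 1 and 56 (4.43%) in replicate 2, with median signals of 0.928 and 1.58, against 0.639 and 0.762 for the other members. RefSeq placed a start within 1000 bp of 36 and 38 members that GENCODE did not, and their median signals were 0.656 and 0.832, against 0.649 and 0.774 for the rest.

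The site in the UTR of Slc16a5, a member of the monocarboxylate transporter family, had signals of 9.6 in replicate 1 and 8.27 in replicate 2. Prss22, encoding a serine protease, had 7.6 and 7.35, and Rtn2, encoding a reticulon that shapes the endoplasmic reticulum, had 7.22 and 7.16. These 3 UTR sites were about as strong in one library as in the other. Dand5, encoding an inhibitor of Nodal signalling, had 7.28 and 6.14 in its UTR around the CTCF match printed above.

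At 1700029H14Rik, inside the gene in non-coding sequence other than UTR, signals were 6.26 in replicate 1 and 8.51 in replicate 2, the strongest site with the CTCF word. Dtx1, whose product is a ubiquitin ligase of the Notch pathway, had 6.01 and 8.3. Thbs4, encoding a thrombospondin of the extracellular matrix, had 6.67 and 7.02. Of the 10 sites of highest mean rank, only 1700029H14Rik and Dand5 held the CTCF word.

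Gm10722 on chromosome 9 stood apart, with signals of 15.2 in replicate 1 and 6.62 in replicate 2. Every 31-base word of that site occurred more than once in the genome (100%), so short reads from it may not have a unique place. Among the 883 sites, 6 had over 50% of such words (Iqsec1, Gm10722, Ak9, Gm3047, Gm8113 and Ptgdr, named after their values were seen), and 808 (91.5%) had none.

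Some members differed between libraries well beyond the typical ratio. Among sites above the median signal, those highest in replicate 1 after Gm10722 (log2 ratio 1.20) were at Ntng2, which encodes the axonal adhesion protein netrin-G2, with signals of 1.5 in replicate 1 and 0.817 in replicate 2 (log2 ratio 0.87), and Sult6b2, a sulfotransferase gene, with 1.39 and 0.774 (0.84). Lin52, a subunit gene of the DREAM cell cycle repressor complex, had 1.25 and 0.706 (0.83), and 2210011C24Rik had 3.77 and 2.14 (0.82) with the CTCF word. Both libraries had a peak at each.

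In the other direction, Fyco1, encoding an adaptor for the transport of autophagosomes, had signals of 0.545 in replicate 1 and 1.62 in replicate 2 (log2 ratio -1.57). The site shared by the ends of Derl3, of endoplasmic reticulum-associated degradation, and Smarcb1, a core subunit gene of the SWI/SNF remodelling complex, had 0.767 and 1.79 (-1.23), and it held 4 footprints in replicate 1 and 8 in replicate 2. Unc13d, encoding a priming factor of granule exocytosis, had 0.639 and 1.49 (-1.22), and Psmf1, encoding a proteasome inhibitor, 0.762 and 1.76 (-1.20). Fgf10, a fibroblast growth factor gene, had 0.677 and 1.55 (-1.19). With 1 library on each side these ratios have no replicate check.

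The members with the most footprints were broad sites or strong ones. The site 450 bp past Hspb7, a small heat shock protein gene, had 10 footprints in replicate 1 and 9 in replicate 2, with signals of 2.21 and 3.1. Shf, encoding an SH2 domain adaptor, had 7 and 10 footprints, and Fhl3, encoding a LIM domain protein, had 6 and 10. Capn11, a calpain gene, had 8 and 7 in a site 53 bp past its end. Aak1, encoding a kinase of clathrin-mediated endocytosis, had 9 and 5 in a UTR site around the CTCF match printed above, with signals of 3.64 and 3.16. Adra1d had 7 and 7, the same sum as Aak1, and came after it by its lower signals of 1.31 and 1.06.

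A 3' end peak was an uncommon feature of a gene. There were 1167 host genes in replicate 1 and 1228 in replicate 2, and 926 in both, of 20807 protein-coding genes (4.45%). Of the 19643 genes (94.4%) with any eligible sequence at their end, 4.71% were hosts in both. At 50 sites the peak lay within 500 bp of the ends of at least 2 genes. Hosts more often had a promoter peak, 80.5% and 79.2% in replicates 1 and 2, against 68.8% and 68.2% of other eligible genes. The promoter peaks themselves were of like strength, with medians of 3.46 and 3.97 at hosts, against 3.55 and 3.97. Across hosts with both, the signal at the 3' end and at the promoter had a Spearman's rho of -0.0855 (n = 939 genes) and -0.0288 (n = 973), which describes genes of 1 library and is close to no relation.

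Hosts were more common where the ends of neighbouring genes faced each other. Where the next gene downstream faced the opposite way, so that both 3' ends converged, 7.12% (6.6 to 7.68) and 7.35% (6.82 to 7.92) of 8651 genes were hosts, or 80 and 82.6 hosts per Mb of eligible sequence. Where it faced the same way, 5.01% (4.62 to 5.44) and 5.4% (4.99 to 5.83) of 10971 genes were hosts, or 57.4 and 61.8 per Mb. A site near convergent ends can count for both genes. Hosts were slightly longer, with medians of 20 and 19.8 kb, against 18.2 and 18.2 kb, and the median gap to the next gene was 12.3 and 12.8 kb, against 15.5 and 15.5 kb.

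A number of genes held more than 1 member: 117 in replicate 1 and 134 in replicate 2. Acap3, which encodes an activating protein for Arf GTPases, had 3 and 3. B4galt5, a galactosyltransferase gene of glycolipid synthesis, had 4 and 2, with a summed signal of 0.729 and 0.326. Pigv, encoding a mannosyltransferase of GPI anchor synthesis, had 2 and 3 with 3.63 and 6.46 in all, Capn11 had 3 and 2 with 3.92 and 3.91, and Copz2, a coatomer subunit gene, had 2 and 3 with 2.84 and 3.48. The peaks of a gene share its end and are not independent.

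The 3' ends of cell type genes, like those of protein-coding genes as a whole, were mostly without a peak. Set beside 4.45% of all protein-coding genes, hosts in both libraries were 2 of 12 oligodendrocyte precursor genes, 3 of 20 activity-regulated genes, 1 of 16 pan-neuronal, 1 of 16 astrocyte, 1 of 18 synaptic plasticity, 1 of 16 housekeeping and 1 of 18 ribosomal protein genes. None was found among 18 excitatory neuron, 18 inhibitory neuron, 13 myelin, 14 microglia, 14 endothelial, 16 hepatocyte and 16 germline genes, where a count of 0 allows shares of up to 16.7% to 23.1%. In lists of 12 to 20 genes, 1 gene alone is a larger share than that of all genes. The lists, like the 4.45%, include genes without eligible sequence, which cannot be hosts. For example, 12 of the 18 ribosomal protein genes and 13 of the 16 germline genes had any.

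Bcan, encoding brevican, a proteoglycan of the brain extracellular matrix, had the strongest member of all listed genes, with signals of 5.02 in replicate 1 and 4.9 in replicate 2 at the site printed above, 410 bp downstream. A weaker Bcan member in the UTR had 0.815 and 0.725. Olig1, a transcription factor gene of the oligodendrocyte lineage, had 0.54 and 0.534 in its UTR. S100b, encoding a calcium-binding protein of astrocytes, had 0.682 and 0.596. The values of both libraries were close at each of these sites.

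Among activity-regulated genes, whose transcription follows neuronal firing, Egr4 had signals of 2.77 in replicate 1 and 3.19 in replicate 2 at the site printed above, 460 bp past its end, where the word TTGGCA lies in a footprint of both libraries, and 0.488 and 0.706 at a site in its UTR. In the printed Egr4 sequence, the same footprint also holds a stretch that closely resembles the CTCF word printed for Bcan. It overlaps the nuclear factor I word and is not a full match to the CTCF consensus, so the search did not count it. Which factor was bound there, if any, was not tested. Junb, a Jun family gene, had 1.25 and 1.27 at a site 69 bp past its end that lies inside another annotated gene and within 500 bp of the end of Prdx2, a peroxiredoxin gene. Ier2, an immediate early gene, had 0.886 and 1.41 in its UTR. Fos, Egr1, Arc and Npas4, of the same list, were hosts in neither library.

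Nefm, encoding the medium neurofilament protein, had 0.445 in replicate 1 and 0.688 in replicate 2 in its UTR, with 6 footprints in a peak of 540 bp in replicate 1 and 1 in a peak of 200 bp in replicate 2. Mapt, encoding the microtubule protein tau, had 0.706 and 0.86, and Tubb5, a beta tubulin gene, 0.696 and 0.805, both 238 bp past the end. Rpl23, a ribosomal protein gene, had 0.398 and 0.676. All 4 were higher in replicate 2, as were most members.

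Hosts in 1 library only were named after their values were seen. Neurod2, Neurod6, Nrgn, Slc17a7, Tbr1 and Tle4 were the excitatory neuron genes among them. Nrgn, encoding the calmodulin-binding protein neurogranin, had peaks of 2.47 in replicate 1 and 2.54 in replicate 2, and Tle4 0.464 and 0.393, but only 1 of the centres met the rule. Gapdh was alike, with 1.39 and 1.23. Tek, Tie1 and Cdh5, genes of endothelial cells, were hosts in replicate 2 only, with signals there of 0.178, 0.264 and, for the stronger of the sites at Cdh5, 0.461. That Cdh5 site had a peak of 0.497 in replicate 1 whose centre missed the rule.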

How the data were processed

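DNase-seq libraries of 1 group were used, 2 in all. Per the file headers and notes, the authors made each file from that library's own mm10 alignments, without pooling replicates; aligner, callers and sequencing depth: not given in the sources used here. The deposited peak signal is the highest cleavage density in a peak, scaled by the authors. The deposited interval files give a q-value (false discovery rate) up to 0.05. The deposited score column of the footprints held 1 value throughout and was not used. The larger peak list of each library held 150726 and 155536 peaks, and the smaller 89013 and 92506.

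Gene models were GENCODE M21 and sequence GRCm38.p6. Peaks were placed by their centre; "other distal" peaks are over 1000 bp from any start, outside coding sequence and over 500 bp from protein-coding 3' ends. Sharing and footprints needed 1 bp of overlap. Words were matched on both strands of the central 150 bp; the CTCF, MEF2 and NRF1 words allow alternative bases. Medians, shares with Wilson 95% intervals and densities were described per library and as mean ± SD; no test was made. The members, the 14 gene lists and the words were chosen with earlier results of these data known.

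Sites were named by a rule: the 10 of highest mean rank in both libraries, the 5 with the largest ratio in each direction above the median signal, the 5 with the most footprints (ties by signal), the 5 genes with the most members, up to 3 genes per list, and the strongest with the CTCF word. Alternatives were the distances, coding sequence, 3' ends, peak list, overlaps, comparison peaks and each library alone. Membership, the density ratio, sharing, the signal ratio and the search for the CTCF word were tested on simulated data, and the other steps were not. Computations used Python 3.11.15, NumPy 2.4.6, pandas 2.3.3, SciPy 1.17.1, Numba 0.67.0 and Matplotlib 3.10.9.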

Additional observations from a re-analysis of the deposited data

How the results depend on the processing

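The density and signal ratios stayed above 1 under every alternative tried, but the signal ratio was not recomputed against peaks 500 to 5000 bp from an end. Median signals from 500 to 2000 bp downstream were 0.649 and 0.786, against 0.649 and 0.774 for members. From 2000 to 500 bp upstream they were lower, 0.592 and 0.749. The other results were recomputed for the members alone, with no comparison group. Restricting members to 250 bp from the end gave 570 members, 407 host genes and a density ratio of 1.37, and 1000 bp gave 2402, 1760 and 1.54; that narrower windows hold fewer members follows from their construction. Using the ends of all transcripts gave 2892 members, 1965 host genes, a density ratio of 1.39 and a signal ratio of 1.24. The smaller peak list gave 742 members, 582 host genes, a density ratio of 1.68, a signal ratio of 1.26 and a footprint share of 92.4%. Leaving out peaks with any base in coding sequence gave a density ratio of 1.43, with the eligible sequence kept as it was. Starts over 2000 bp away gave a signal ratio of 1.33, and comparison peaks over 5000 bp from any 3' end 1.31. Asking for 50% reciprocal overlap gave 67.4% shared. Of the alternatives added after the data were seen, comparison sequence 500 to 5000 bp from an end gave a density ratio of 1.05, and bins of distance to a start gave a density ratio of 1.31 and a signal ratio of 1.18. The CTCF share was 8.77% with starts over 500 bp away, 8.31% with all transcripts' ends and 14.2% in the smaller list. Unless stated, the cause was not tested.

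With each library alone, members numbered 1183 to 1263, host genes 1167 to 1228, and the ranges were 72.7% to 76.9% for sharing, 86.1% to 88.3% for footprints, 1.27 to 1.3 for the signal ratio and 1.49 to 1.52 for the density ratio. No paired analysis was possible because the labels gave 1 group. With 2 libraries and unknown depth, SDs are rough, weak peaks may be missed in either library, and shares of words with few matches cannot be compared.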
